A study of Mus musculus with 12 samples.

Results

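The arrays carried probes for 85 nuclear genes named as parts of the mitochondrial respiratory chain or of ATP synthase. The genes were chosen by the gene name printed in the array files: complex I subunits of the Ndufa, Ndufb, Ndufc, Ndufs and Ndufv series, Sdha to Sdhd of complex II, the Uqcr genes of complex III, the Cox4 to Cox8 genes of complex IV and the Atp5 genes of ATP synthase. The names matched 115 of 55681 probes and 85 of 36315 genes. By the known place of the products, 35 of the genes belong to complex I, 4 to complex II, 8 to complex III, 20 to complex IV and 15 to ATP synthase. The other 3 (Atp5s, Atp5sl and Cox4nb) carry such a name without encoding a subunit. One probe stood for each gene, the one with the highest mean level over all arrays.

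Complexes I and II take electrons from NADH and succinate, complex III passes them to cytochrome c, and complex IV hands them to oxygen. The proton gradient that builds up drives ATP synthase, also called complex V. Several complex IV subunits exist as general and tissue isoforms encoded by separate genes, and Cox6b2, Cox7b2 and Cox8c are the isoforms known from testis and sperm, where the flagellum depends on its own ATP supply.

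The study sorted undifferentiated and differentiating spermatogonia from C57BL/6 mice of 10 to 11 weeks and measured their RNA on 1-colour Agilent arrays, whose spots shine in proportion to the labelled transcript they bind. GFRα1+ cells, the fraction that holds the stem cells, were the GFP+ cells of GFRα1-EGFP knock-in mice, and each sample came from 1 mouse. NGN3+ cells, progenitors that respond to retinoic acid, were the GFP+/KIT- cells of Ngn3-EGFP transgenic mice, with 2 mice pooled for each sample. KIT+ cells, differentiating spermatogonia, were the GFP+/KIT+ cells of the same transgenic line, from 1 mouse for each sample, in which GFP outlasts the activity of the transgene. Whole testes came from wild-type littermates of the knock-in mice. Each of the 4 groups had 3 arrays, and 10000 to 20000 sorted cells went into an RNA sample, against 500000 cells for whole testes.

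Levels below are log2 of the processed signal minus the 75th percentile of the same array, so 0 is that percentile and a level of 1 is 2 times as bright. They compare 1 gene between samples, not genes with one another, since probes differ in brightness. Higher and lower, rise and fall are therefore relative to this percentile of each array. The control RNA (spike-in) was not level on this scale. It stood at 1.459, 1.135 and 0.804 in GFRα1+ and −0.654, −0.472 and −0.592 in NGN3+ samples. In KIT+ samples it stood at −0.653, −0.640 and −0.716, and in whole testes at 1.003, 0.910 and 0.501. Scaling to the spike-in was not tested. The share of probes well above background was 50.1% to 50.8% in GFRα1+, 59.5% to 65.1% in NGN3+ and 54.8% to 62.0% in KIT+ samples, against 54.8% to 57.6% in whole testes. Of the 85 genes, 83 reached this mark in each GFRα1+ sample and 84 in each sample of every other group. The median SD of a gene among replicates was 0.08 in GFRα1+, 0.14 in NGN3+, 0.14 in KIT+ and 0.09 in whole testes. Gfra1 averaged 1.65, −1.22 and −3.38 in GFRα1+, NGN3+ and KIT+ cells, Neurog3 4.13, 5.23 and 2.77, and Kit 1.5, 1.96 and 4.55, so each of these genes was highest in the fraction named for it. The 3 slides did not hold the groups evenly: slide 1 carried GFRα1+ replicates 1 and 2 and whole testes replicate 1, slide 3 the other whole testes, and slide 2 the remaining GFRα1+ sample beside every NGN3+ and KIT+ sample.

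The testis isoform Cox6b2 of subunit VIb, which bridges the monomers of the complex IV dimer, was low in GFRα1+ cells and higher in each of the later fractions. Its level was 0.57, 0.73 and 0.50 in GFRα1+ cells, 2.02, 2.45 and 2.59 in NGN3+ cells, 2.91, 2.64 and 2.82 in KIT+ cells, and 5.19, 5.41 and 5.15 in whole testes. No group overlapped another. In NGN3+ over GFRα1+ cells the log2 ratio was 1.75 (SE 0.16, 3.37-fold, adjusted p = 3.8e-05 from limma), while the further difference of KIT+ over NGN3+ cells, 0.44, did not pass (adjusted p = 0.0634). It passed without NGN3+ replicate 3 (0.56, adjusted p = 0.037). Even in KIT+ cells Cox6b2 stood at 18.2% of its whole testis level, after 3.98% in GFRα1+ and 13.4% in NGN3+ cells. In bulk samples, fewer cells of a type and less RNA per cell cannot be told apart.

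Its general counterpart Cox6b1 stood on the other side of whole testes, and no difference between fractions passed for it. NGN3+ over GFRα1+ cells came nearest, at −0.40 (adjusted p = 0.0502 from limma), just over the threshold. Cox6b1 stood at 3.77, 3.52 and 3.89 in GFRα1+ cells, 3.54, 3.24 and 3.18 in NGN3+ cells and 3.37, 3.72 and 3.44 in KIT+ cells, against 0.87, 0.54 and 0.53 in whole testes. The sorted fractions overlapped among themselves and none of them overlapped whole testes, over which Cox6b1 was 8.44-fold, 6.39-fold and 7.27-fold higher in GFRα1+, NGN3+ and KIT+ cells (log2 3.08, 2.68 and 2.86). Both genes lie on chromosome 7. Their promoters are printed because this general and testis isoform stood on opposite sides of whole testes, and they are the RefSeq windows of GRCm38.p6 from 250 bases before to 50 after the transcription start, on the minus strand, at chr7:4753045-4753344 for Cox6b2 and chr7:30626065-30626364 for Cox6b1. Capitals mark matches to the CRE core TGACG or the ETS site CCGGAAG on either strand.
Cox6b2: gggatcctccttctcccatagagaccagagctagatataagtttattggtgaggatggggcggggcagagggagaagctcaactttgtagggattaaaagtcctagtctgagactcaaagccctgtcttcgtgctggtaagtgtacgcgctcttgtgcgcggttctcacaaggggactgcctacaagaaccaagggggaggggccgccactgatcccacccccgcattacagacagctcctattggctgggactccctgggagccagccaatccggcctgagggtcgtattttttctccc
Cox6b1: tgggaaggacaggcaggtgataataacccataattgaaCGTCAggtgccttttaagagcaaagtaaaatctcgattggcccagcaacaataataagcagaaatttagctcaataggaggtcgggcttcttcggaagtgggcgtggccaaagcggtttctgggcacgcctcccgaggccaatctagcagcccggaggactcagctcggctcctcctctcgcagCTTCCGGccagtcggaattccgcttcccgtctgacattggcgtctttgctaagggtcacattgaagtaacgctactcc
The Cox6b1 window held 1 match to each motif, and the Cox6b2 window held none to these letters.

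Cox8c, the testis isoform of subunit VIII, the smallest nuclear-encoded piece of complex IV, also stood higher outside the GFRα1+ fraction. Levels were 2.40, 2.37 and 2.43 in GFRα1+ cells, 2.70, 3.67 and 4.06 in NGN3+ cells, 3.87, 3.25 and 3.64 in KIT+ cells and 6.97, 7.23 and 7.17 in whole testes. The NGN3+ arrays were spread over more than the whole range of the KIT+ arrays, with replicate 1 close to the GFRα1+ cells. NGN3+ over GFRα1+ cells gave 1.07 (SE 0.314, 2.11-fold, adjusted p = 0.0183), and this call was lost without NGN3+ replicate 2 (0.98, adjusted p = 0.066), without NGN3+ replicate 3 (0.78, adjusted p = 0.059) and within slide 2 (1.04, adjusted p = 0.14). KIT+ over GFRα1+ cells gave 1.19 (adjusted p = 0.00877, or 0.067 with slide as a block), and KIT+ over NGN3+ cells gave 0.11 (adjusted p = 0.821). Relative to whole testes, Cox8c was 26.4-fold, 12.6-fold and 11.6-fold lower in GFRα1+, NGN3+ and KIT+ cells.

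The general isoform Cox8a was, of all 84 genes tested, the one furthest above whole testes in GFRα1+ cells. Cox8a stood at 7.62, 7.68 and 7.57 in GFRα1+ cells, 7.43, 7.12 and 7.05 in NGN3+ cells and 6.99, 7.31 and 6.93 in KIT+ cells, against 4.50, 4.30 and 4.37 in whole testes. Every sorted array was above every whole testis array, and the folds were 9.4 in GFRα1+, 7.0 in NGN3+ and 6.42 in KIT+ cells. A second Cox8a probe gave log2 ratios over whole testes of 3.27, 2.84 and 2.72, next to 3.23, 2.81 and 2.68 from the chosen probe.

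Cox7b2, the testis isoform of subunit VIIb, ran the other way between the fractions. Its level was 2.65, 2.65 and 2.64 in GFRα1+ cells, 2.07, 2.05 and 2.15 in NGN3+ cells, 1.81, 1.73 and 1.67 in KIT+ cells and 3.44, 3.86 and 3.76 in whole testes. The 4 groups were fully separate and each sorted group spanned 0.14 or less. NGN3+ over GFRα1+ cells gave −0.56 (SE 0.0889, adjusted p = 0.000942) and KIT+ over NGN3+ cells −0.36 (SE 0.089, adjusted p = 0.0145), the second of which missed the threshold without KIT+ replicate 3 (−0.32, adjusted p = 0.067). Cox7b2 thus reached 48.6%, 33.0% and 25.8% of its whole testis level in GFRα1+, NGN3+ and KIT+ cells.

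Ndufa4l2, a relative of the complex IV subunit Ndufa4 that is known as a gene induced by low oxygen, had the largest ratio between fractions of all 84 genes. It stood at −2.73, −2.38 and −2.06 in GFRα1+ cells, −0.32, 0.26 and 0.57 in NGN3+ cells, 0.72, −0.04 and 0.40 in KIT+ cells and 3.49, 3.70 and 3.49 in whole testes. NGN3+ and KIT+ arrays overlapped, and both lay between GFRα1+ cells and whole testes without touching either. The log2 ratio was 2.56 for NGN3+ over GFRα1+ cells (SE 0.281, 5.9-fold, adjusted p = 0.00011) and 0.19 for KIT+ over NGN3+ cells (adjusted p = 0.648). Against whole testes it was −5.95 in GFRα1+, −3.39 in NGN3+ and −3.20 in KIT+ cells, or 1.62%, 9.55% and 10.9% of the whole testis level.

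Ndufa4 itself dipped in NGN3+ cells. Its level was 4.40, 4.20 and 3.92 in GFRα1+ cells, 3.46, 3.37 and 3.5 in NGN3+ cells, 4.09, 4.46 and 4.13 in KIT+ cells and 1.87, 1.68 and 1.77 in whole testes. NGN3+ arrays lay below both other fractions, and GFRα1+ and KIT+ arrays overlapped. The ratios were −0.73 for NGN3+ over GFRα1+ cells (adjusted p = 0.00362, or 0.07 with slide as a block, where the ratio was −0.48) and 0.78 for KIT+ over NGN3+ cells (adjusted p = 0.00418).

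**Figure D1:**
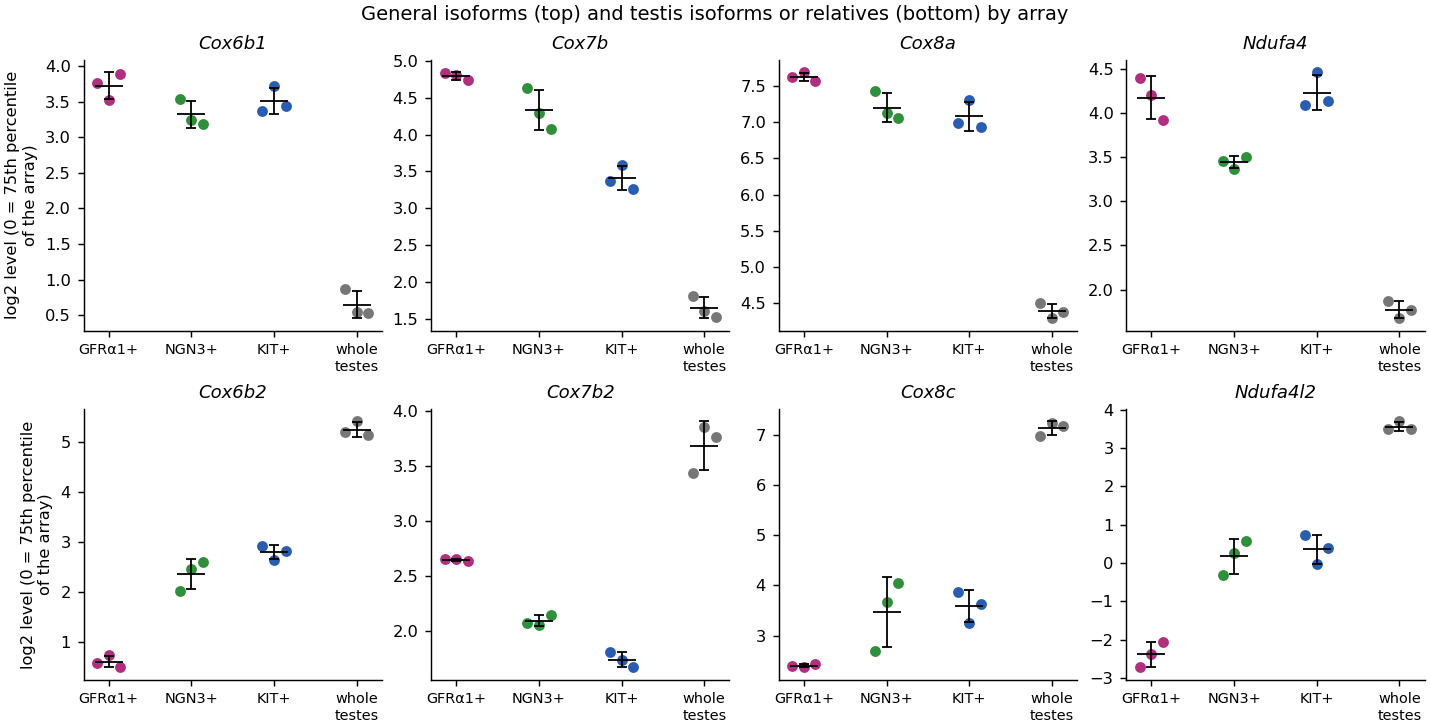
Log2 levels of 4 general genes (top) and of their testis isoforms or relative (bottom) on each array, where 0 is the 75th percentile of the array; points are arrays, bars the mean ± SD (n = 3), and each panel has its own scale that does not start at 0. The general genes sat above whole testes in every sorted array and the bottom genes below, while Cox7b2 fell across the fractions where Cox6b2 was higher in NGN3+ and KIT+ than in GFRα1+ cells.

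Genes that mark spermatids moved in the same comparison as Cox6b2, Cox8c and Ndufa4l2. All 12 spermatid markers on the list, among them the protamine genes Prm1 and Prm2, were higher in NGN3+ cells (median log2 ratio over GFRα1+ cells 5.45), and 0 of 12 passed in KIT+ over NGN3+ cells. Their summed log2 level ran from 4.73 to 5.95 on GFRα1+ arrays, 10.4 to 10.6 on NGN3+ arrays, 10.6 to 10.9 on KIT+ arrays and 12.3 to 12.6 on whole testes. As a median over the list this was 0.25%, 8.97% and 12.3% of the whole testis level in GFRα1+, NGN3+ and KIT+ cells, and in GFRα1+ cells 9 of 12 were detected above background on each array and 2 on none. In NGN3+ and KIT+ cells the shares of Cox8c (7.96% and 8.61%) and Ndufa4l2 (9.55% and 10.9%) were near the marker medians, and those of Cox6b2, given above, exceeded them. Single markers varied widely, with log2 ratios over whole testes of −4.14 to −0.74 in NGN3+ and −3.65 to −0.56 in KIT+ cells. In GFRα1+ cells Cox6b2 (3.98%), Cox8c (3.78%) and Ndufa4l2 (1.62%) stood above the list's 0.25%. Other markers moved in this comparison as well: of 10 spermatocyte markers, NGN3+ cells had 7 higher and 3 lower (median log2 ratio 1.1 over GFRα1+ cells), 5 of 5 peritubular markers higher (2.62), and 5 of 9 Sertoli cell markers higher (0.65), next to 1.75 for Cox6b2, 1.07 for Cox8c and 2.56 for Ndufa4l2. As medians these lists stood at 13.0%, 24.0% and 23.3% of the whole testis level in GFRα1+, NGN3+ and KIT+ cells for spermatocytes, 5.14%, 31.5% and 12% for peritubular cells, and 16.9%, 13.7% and 16.6% for Sertoli cells. The part of RNA from any of these cells in the ratios of the 3 genes was not tested. Among the fractions Cox7b2 was highest in GFRα1+ cells. There the spermatid, spermatocyte and peritubular medians were lowest. The Sertoli cell medians of GFRα1+ and KIT+ cells were close (16.9% and 16.6%). From GFRα1+ to NGN3+ cells 5 of 9 Sertoli cell markers passed as a rise and 0 as a fall. Endothelial markers had medians of 94.4%, 62.0% and 18.1% in GFRα1+, NGN3+ and KIT+ cells. Of 5 endothelial markers, 1 rose and 1 fell in the first step. In the second step 3 fell and 0 rose. The part of these cells in the Cox7b2 ratios was not tested.

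**Figure D2:**
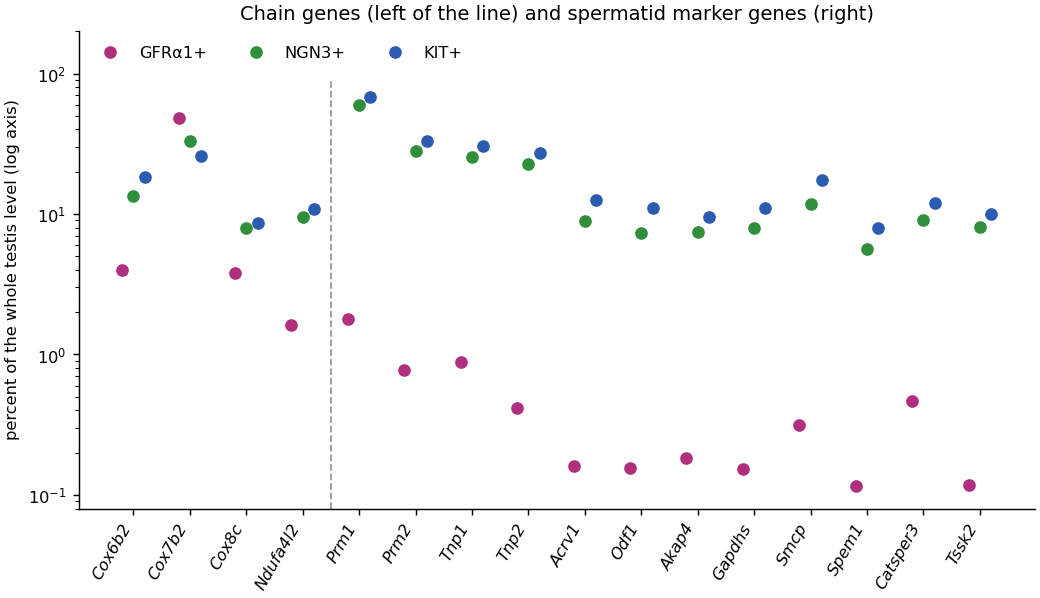
Level of Cox6b2, Cox7b2, Cox8c and Ndufa4l2 (left of the dashed line) and of 12 spermatid markers (right) as a percent of the whole testis level, on a log axis, each point the ratio of 3-array means in GFRα1+, NGN3+ or KIT+ cells; some markers in GFRα1+ cells were not well above background. Spermatid markers in GFRα1+ cells had a median of 0.25%, against 8.97% in NGN3+ and 12.3% in KIT+ cells.

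Among the isoforms known from other tissues, Cox7a1 was highest in KIT+ cells. Cox7a1, the heart and muscle isoform of subunit VIIa, stood at 2.08, 1.94 and 2.18 in GFRα1+ cells, 1.86, 1.56 and 1.82 in NGN3+ cells, 2.39, 2.83 and 2.25 in KIT+ cells and 0.25, −0.07 and −0.24 in whole testes. KIT+ arrays were above all other arrays, with a ratio of 0.74 over NGN3+ cells (adjusted p = 0.00882). Over GFRα1+ cells it was 0.42 and passed narrowly (adjusted p = 0.0479). The ratio over whole testes was 2.08 in GFRα1+, 1.76 in NGN3+ and 2.51 in KIT+ cells. The general isoform Cox7a2 stood lower than in whole testes in all 3 fractions, by −1.10, −1.32 and −0.98, so for subunit VIIa the muscle isoform was the one above whole testes and the general isoform the one below. Cox4i2, the lung isoform of subunit IV, was −1.09, −0.96 and −1.06 in GFRα1+ cells, −0.16, −0.57 and −0.83 in NGN3+ cells, −1.0, −0.98 and −1.16 in KIT+ cells and −2.57, −1.25 and −1.45 in whole testes. NGN3+ arrays were the highest, with ratios of 0.52 over GFRα1+ cells (adjusted p = 0.0249) and −0.53 for KIT+ over NGN3+ cells (adjusted p = 0.0358). The first call was lost without GFRα1+ replicate 1 (0.49, adjusted p = 0.069), GFRα1+ replicate 3 (0.51, adjusted p = 0.052) or NGN3+ replicate 2 (0.54, adjusted p = 0.058), and the second without any 1 of NGN3+ replicates 1 and 2 or the 3 KIT+ arrays (−0.56 to −0.35). Peritubular markers (5.14%, 31.5% and 12% of the whole testis level) and endothelial markers (94.4%, 62.0% and 18.1%) differed between these fractions too. Their part in the Cox4i2 ratios was not tested.

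Cox6a2, the muscle isoform of subunit VIa, was dim and was well above background on 2 of 3 GFRα1+ arrays, with levels of −2.04, −2.69 and −3.80 there, −2.23, −2.47 and −2.52 in NGN3+ cells, −2.94, −2.60 and −3.34 in KIT+ cells and −2.04, −1.89 and −1.80 in whole testes. No difference between fractions passed for it. Cox8b, the muscle isoform of subunit VIII, was well above background on 0 of 12 arrays and was not tested. The general genes Cox4i1 and Cox6a1 were both bright, at 7.67 ± 0.19 and 8.57 ± 0.02 in GFRα1+ cells, 7.47 ± 0.14 and 8.20 ± 0.11 in NGN3+ cells, 7.58 ± 0.14 and 8.63 ± 0.16 in KIT+ cells and 6.32 ± 0.07 and 7.52 ± 0.09 in whole testes (SD, n = 3 each). Cox6a1 passed in NGN3+ over GFRα1+ cells (−0.37, adjusted p = 0.0213) and in KIT+ over NGN3+ cells (0.43, adjusted p = 0.0191), though the first ratio was 0.07 with quantile normalization, and Cox4i1 passed in neither.

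Of the 3 members on the X chromosome, 2 were lowest in KIT+ among the fractions and 1 was highest there. Ndufb11, an accessory subunit of the membrane arm of complex I, stood at 6.06, 6.22 and 6.24 in GFRα1+ cells, 5.92, 5.44 and 5.52 in NGN3+ cells, 4.43, 4.68 and 4.34 in KIT+ cells and 3.28, 2.95 and 3.1 in whole testes. All 4 groups were separate, and KIT+ cells lay 2.21-fold below NGN3+ cells (log2 −1.14, SE 0.152, adjusted p = 0.00066) and 3.23-fold below GFRα1+ cells (log2 −1.69, adjusted p = 1.56e-05). The smaller step of NGN3+ over GFRα1+ cells, −0.55 (adjusted p = 0.0143), was lost without NGN3+ replicate 2 (−0.46, adjusted p = 0.061) or 3 (−0.50, adjusted p = 0.05). A second, dimmer Ndufb11 probe gave −1.57 for KIT+ over NGN3+ cells (adjusted p = 0.000348) but −0.10 for NGN3+ over GFRα1+ cells (adjusted p = 0.658), and 0.28 for KIT+ cells over whole testes (adjusted p = 0.305), where the brighter probe gave 1.37.

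Cox7b, the general X-linked counterpart of the autosomal Cox7b2, had the same order. It stood at 4.84, 4.80 and 4.74 in GFRα1+ cells, 4.63, 4.29 and 4.08 in NGN3+ cells, 3.38, 3.58 and 3.26 in KIT+ cells and 1.81, 1.61 and 1.53 in whole testes. Each group lay below the one before it without overlap. KIT+ over NGN3+ cells gave −0.93 (SE 0.152, 1.9-fold, adjusted p = 0.00189) and KIT+ over GFRα1+ cells −1.39 (adjusted p = 5.33e-05), whereas the ratio of NGN3+ over GFRα1+ cells, −0.46 (adjusted p = 0.0294), missed the threshold without GFRα1+ replicate 1 (−0.44) or 2 (−0.46) and without NGN3+ replicate 2 (−0.44) or 3 (−0.33).

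Ndufa1, a small subunit needed for the assembly of complex I, stood at 4.38, 4.36 and 4.31 in GFRα1+ cells, 3.70, 3.79 and 3.94 in NGN3+ cells, 5.0, 5.28 and 5.12 in KIT+ cells and 4.18, 4.06 and 4.10 in whole testes. KIT+ arrays were the highest and NGN3+ arrays the lowest, without overlap. NGN3+ over GFRα1+ cells gave −0.54 (SE 0.112, adjusted p = 0.00363, or −0.50 with adjusted p = 0.065 within slide 2), and KIT+ over NGN3+ cells 1.32 (SE 0.112, 2.5-fold, adjusted p = 7.3e-05), the largest rise of a member in that comparison. Ndufa1 was 2.03-fold above whole testes in KIT+ cells. Of the list of pyruvate dehydrogenase genes, which feed the chain with reducing power, the X-linked Pdha1 also fell in both steps: it was 1.62, 1.34 and 1.33 in GFRα1+ cells, 0.42, 0.15 and 0.02 in NGN3+ cells, −1.19, −1.48 and −1.60 in KIT+ cells and −2.71, −3.29 and −3.06 in whole testes, with ratios of −1.23 and −1.62 (adjusted p = 0.000265 and 0.000137).

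**Figure D3:**
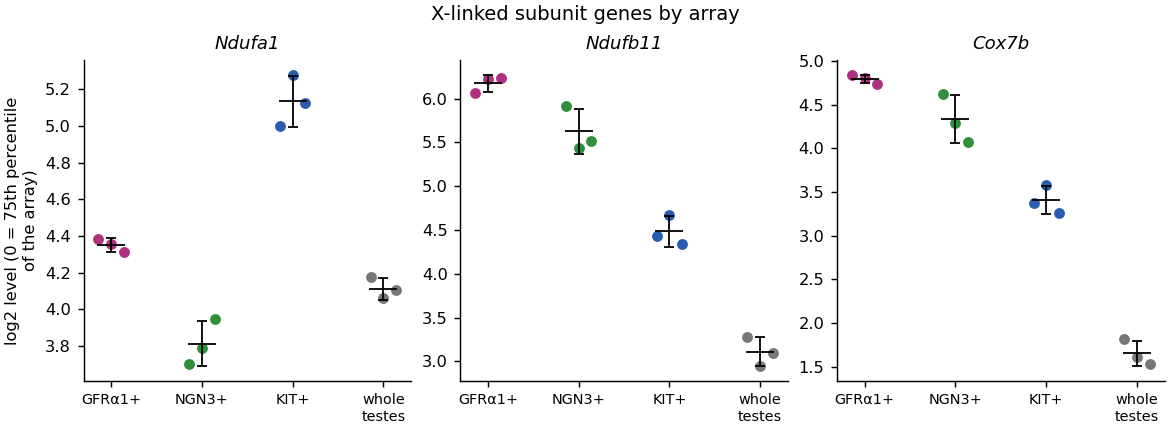
Log2 levels of the 3 X-linked members on each array, where 0 is the 75th percentile of the array; points are arrays, bars the mean ± SD (n = 3), and the scales do not start at 0. Ndufb11 and Cox7b were lowest in KIT+ among the fractions, and Ndufa1 was highest there.

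The promoters of these X-linked genes are shown because genes of 1 chromosome and 1 machine took opposite directions between NGN3+ and KIT+ cells. They are the RefSeq windows of GRCm38.p6 over the same span, at chrX:37191189-37191488 on the minus strand for Ndufa1, chrX:20617570-20617869 on the minus strand for Ndufb11 and chrX:106015450-106015749 on the plus strand for Cox7b. Capitals mark the CRE core TGACG on either strand, and no ETS match was present.
Ndufa1: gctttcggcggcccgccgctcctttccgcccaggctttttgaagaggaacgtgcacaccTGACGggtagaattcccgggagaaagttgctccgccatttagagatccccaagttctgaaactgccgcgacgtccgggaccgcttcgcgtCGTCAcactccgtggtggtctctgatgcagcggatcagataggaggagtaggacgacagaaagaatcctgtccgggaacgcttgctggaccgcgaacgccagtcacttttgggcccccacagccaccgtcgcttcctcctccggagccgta
Ndufb11: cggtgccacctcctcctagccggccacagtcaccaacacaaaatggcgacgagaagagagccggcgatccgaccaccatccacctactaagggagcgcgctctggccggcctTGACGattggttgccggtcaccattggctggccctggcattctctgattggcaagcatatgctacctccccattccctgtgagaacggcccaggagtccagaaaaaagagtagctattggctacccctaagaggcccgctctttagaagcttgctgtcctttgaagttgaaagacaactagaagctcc
Cox7b: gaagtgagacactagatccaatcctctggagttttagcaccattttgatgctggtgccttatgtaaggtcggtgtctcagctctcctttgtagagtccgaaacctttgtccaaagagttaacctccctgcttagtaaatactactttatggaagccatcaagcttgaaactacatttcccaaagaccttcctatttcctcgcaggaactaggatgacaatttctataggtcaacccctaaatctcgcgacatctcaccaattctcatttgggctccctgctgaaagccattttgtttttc
The Ndufa1 window held 2 such cores, the Ndufb11 window 1 and the Cox7b window 0. Among 75 promoters of 69 members in the table, 36% held TGACG on either strand, against 20.8% of all 32851 promoters, 21.3% held CCGGAAG (8.86% of all), 24.0% held the site of nuclear respiratory factor 1, named NRF1 (4.6% of all), and 5.33% held the full site TGACGTCA, which contains the core (1.79% of all). The shares describe letters in these windows only.

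Most general subunits were within a 2-fold range between NGN3+ and GFRα1+ cells. Of the 84 members tested, 41 (48.8%) were lower and 6 (7.14%) higher in NGN3+ cells, against 36.3% lower and 20.2% higher among all genes tested, and the groups did not overlap for 59 members (70.2%), against 62.6% of all genes tested. The median log2 ratio was −0.31, next to −0.19 over all genes tested. The split depended on the scaling: with quantile normalization 16 members were higher and 12 lower, with the percentile taken over the probes detected on all arrays 9 and 22, and within slide 2, against a single GFRα1+ array, 4 and 6. It also leaned on single arrays, with 19 lower without NGN3+ replicate 2, 25 without NGN3+ replicate 3 and 27 without GFRα1+ replicate 1, and with 2 or 3 higher without GFRα1+ replicate 1 or 3 or NGN3+ replicate 2 or 3. The 73 general subunits ranged from −0.73 to 0.44, with 39 lower and 1 higher.

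By complex, 16 of 35 complex I genes were lower and 1 higher, 2 of 4 complex II genes lower, 3 of 8 complex III genes lower, 8 of 19 complex IV genes lower and 4 higher, and 12 of 15 ATP synthase genes lower with 0 higher. Over all genes tested 36.3% were lower and 20.2% higher, so the lower counts of complexes III and IV are near the share of all genes. The most firmly lower genes kept their calls under every alternative run. Among these were Uqcrb, a small ubiquinone-binding subunit of complex III, at 5.97, 5.95 and 5.76 in GFRα1+ cells, 5.31, 5.21 and 5.09 in NGN3+ cells and 5.06, 5.20 and 5.0 in KIT+ cells, with a ratio of −0.69 for NGN3+ over GFRα1+ cells (adjusted p = 0.00103). GFRα1+ arrays lay above all others, and NGN3+ and KIT+ arrays overlapped. Atp5h, subunit d of the stalk that holds the ATP synthase head in place, was 6.58, 6.44 and 6.32 in GFRα1+ cells, 5.74, 5.57 and 5.84 in NGN3+ cells, 6.37, 6.59 and 6.37 in KIT+ cells and 6.29, 6.77 and 6.82 in whole testes. NGN3+ arrays were below all other arrays for Atp5h (−0.73, adjusted p = 0.00121), and the other groups overlapped. Atp5j, coupling factor 6 of the same stalk (−0.62, adjusted p = 0.00121), the catalytic head subunit gene Atp5a1 (−0.55, adjusted p = 0.00148) and Ndufb5 of the complex I membrane arm (−0.55, adjusted p = 0.00121) also fell.

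Further genes of complexes I to III were lower too. Uqcrfs1, the Rieske iron-sulphur protein of complex III, gave −0.56 (adjusted p = 0.00198), and Ndufb3 of complex I gave −0.55 (adjusted p = 0.0051). The succinate dehydrogenase flavoprotein gene Sdha fell by 0.34 on the log2 scale (adjusted p = 0.0182), a call lost without GFRα1+ replicate 2 (adjusted p = 0.051) or NGN3+ replicate 2 (−0.30, adjusted p = 0.075), while its partners Sdhb (−0.15) and Sdhc (−0.21) did not pass. Sdhd, a membrane anchor of complex II, gave −0.32 (adjusted p = 0.0446) and lost this call without any 1 of 5 of the 6 arrays compared (−0.34 to −0.25). The 1 general subunit that was higher was Ndufa12, a complex I accessory subunit singled out here after its values were seen. It was 3.68, 3.84 and 3.46 in GFRα1+ cells, 3.82, 4.16 and 4.33 in NGN3+ cells, 4.75, 4.79 and 4.80 in KIT+ cells and 6.35, 6.55 and 6.32 in whole testes. GFRα1+ and NGN3+ arrays overlapped slightly, and the ratio of 0.44 (adjusted p = 0.0357) lost its call without GFRα1+ replicate 1 (0.45) or 3 (0.34) and without NGN3+ replicate 2 (0.41) or 3 (0.33). KIT+ arrays stood clear above the other fractions, by 0.68 over NGN3+ cells (adjusted p = 0.00876).

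In KIT+ over NGN3+ cells the members leaned upward. Of 84 tested, 25 (29.8%) were higher and 7 (8.33%) lower, against 17.5% higher and 16.9% lower among all genes tested, with a median of 0.17 next to 0.05. The count of higher members was 15 without NGN3+ replicate 2 and 16 without KIT+ replicate 2, and that of lower members 3 or 4 without NGN3+ replicate 1, KIT+ replicate 1 or KIT+ replicate 3. All arrays of this comparison lay on slide 2. By complex, 10 of 35 complex I genes were higher and 2 lower, 1 of 4 complex II genes higher, 3 of 8 complex III genes higher, 5 of 19 complex IV genes higher and 4 lower, and 6 of 15 ATP synthase genes higher and 1 lower.

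Atp5f1, which encodes subunit b of the ATP synthase stalk, had the largest rise after Ndufa1. It stood at 4.53, 4.33 and 4.0 in GFRα1+ cells, 3.43, 3.54 and 3.73 in NGN3+ cells, 4.45, 4.70 and 4.54 in KIT+ cells and 3.60, 3.74 and 3.65 in whole testes. NGN3+ arrays lay below both other fractions and overlapped whole testes. KIT+ over NGN3+ cells gave 1.0 (SE 0.155, adjusted p = 0.00143) and NGN3+ over GFRα1+ cells −0.72 (adjusted p = 0.00441, or −0.43 with adjusted p = 0.084 with slide as a block). Uqcrc2, a core protein of complex III, was 4.56, 4.51 and 4.51 in GFRα1+ cells, 3.98, 3.96 and 4.14 in NGN3+ cells, 4.56, 4.79 and 4.73 in KIT+ cells and 3.57, 3.51 and 3.49 in whole testes. Its NGN3+ arrays were again below both other fractions, by −0.50 against GFRα1+ cells (adjusted p = 0.00363), and KIT+ cells were 0.67 above them (adjusted p = 0.00135). The complex I core gene Ndufv2 (0.67, adjusted p = 0.00153), Atp5h (0.73, adjusted p = 0.00208) and Atp5a1 (0.66, adjusted p = 0.00102) rose as well.

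The members that were lower in KIT+ cells included more than the X-linked pair. Ndufv3, an accessory subunit of the NADH-binding part of complex I, stood at 5.55, 5.68 and 5.71 in GFRα1+ cells, 5.70, 5.40 and 5.23 in NGN3+ cells, 4.66, 4.88 and 4.52 in KIT+ cells and 4.94, 5.10 and 4.96 in whole testes. KIT+ arrays were below all other arrays, at −0.76 against NGN3+ cells (adjusted p = 0.00452), and GFRα1+ and NGN3+ arrays overlapped. Cox7a2l, which joins complexes III and IV into supercomplexes, fell in both steps, by −0.64 (adjusted p = 0.00568) and −0.49 (adjusted p = 0.0302), with the second call lost without NGN3+ replicate 1 (−0.37) or 2 (−0.54) or KIT+ replicate 1 (−0.42) or 3 (−0.46). Atp5g1, Atp5g2 and Atp5g3 encode the same subunit c of the ATP synthase ring, and the ratios differed in size and sign: KIT+ over NGN3+ ratios were −0.42 (adjusted p = 0.0232, lost without NGN3+ replicate 1 or KIT+ replicate 1 or 3), 0.21 (adjusted p = 0.299) and −0.27 (adjusted p = 0.188), and NGN3+ over GFRα1+ ratios were −0.04 (adjusted p = 0.766), −0.37 (adjusted p = 0.048) and −0.48 (adjusted p = 0.0198). With quantile normalization the NGN3+ over GFRα1+ ratios of Atp5g1 and Atp5g2 turned to 0.36 and 0.041.

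**Figure D4:**
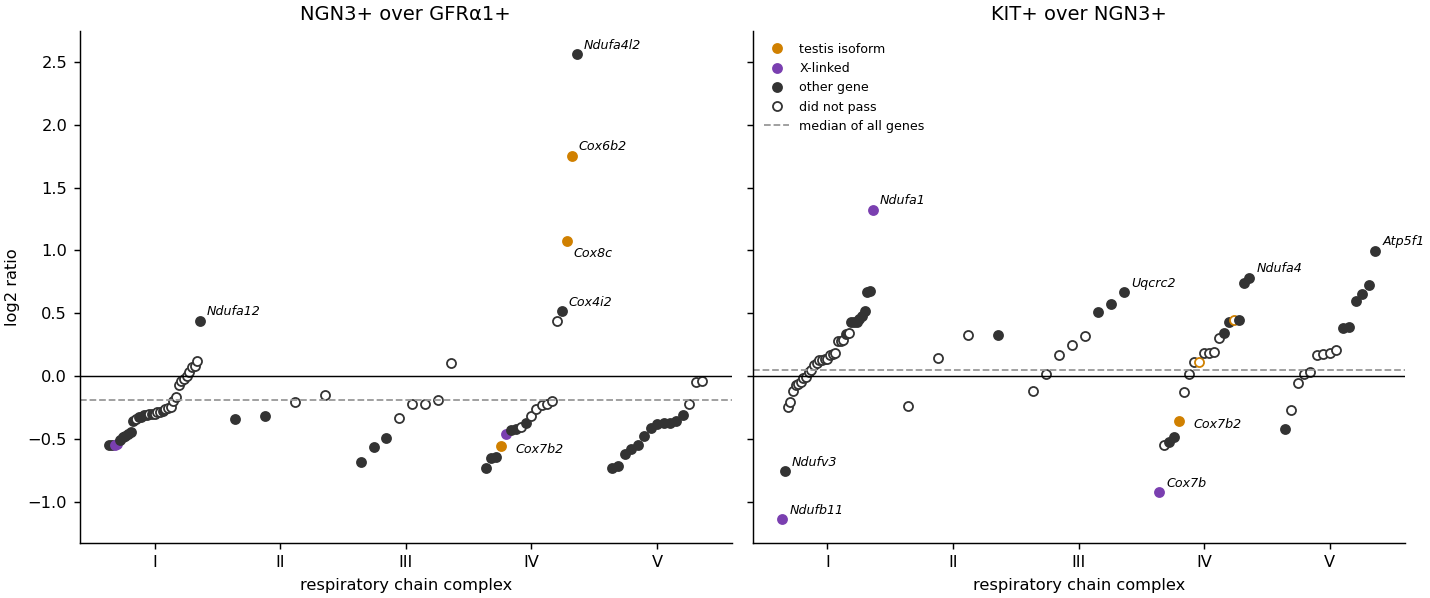
Log2 ratios of NGN3+ over GFRα1+ cells (left) and KIT+ over NGN3+ cells (right) for the tested subunit genes by complex, in rising order within a complex. Filled points passed at an adjusted p under 0.05, colours mark testis isoforms and X-linked genes, and the dashed line is the median of all genes tested (−0.19 left, 0.05 right). Cox6b2, Cox8c and Ndufa4l2 stand apart on the left. On the right the largest ratios of either sign are those of Ndufa1, Ndufb11, the autosomal Atp5f1 and Cox7b.

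Across both steps, 17 members were lower in NGN3+ than in GFRα1+ cells and higher in KIT+ than in NGN3+ cells, among them Ndufa4, Atp5f1, Uqcrc2, Atp5a1 and Sdha. That was 20.2% of the members, against 7.81% of all genes tested in both steps, which share the NGN3+ arrays. This count belongs to the main scaling and model. The first step alone had 12 members lower with quantile normalization and 11 with slide as a block, fewer than these 17. Ndufa4 and Atp5f1 lost their first call with slide as a block, and Sdha without GFRα1+ replicate 2 or NGN3+ replicate 2. Another 20 (23.8%, against 21.6% of all genes) were lower in the first step and did not pass in the second, and 4 (4.76%, against 6.63%) were lower in both: Ndufb11, Cox7a2l, Cox7b and Cox7b2. A further 7 (8.33%, against 7.27%) passed as higher in the second step alone and 28 (33.3%, against 28.7%) passed in neither. Comparing KIT+ with GFRα1+ cells directly, 14 of 84 (16.7%) were higher and 25 (29.8%) lower, against 26.7% and 39.4% of all genes tested, with a median of −0.08 next to −0.15. Here the split turned with the scaling, to 36 higher and 14 lower with quantile normalization and 26 and 19 with the percentile of detected probes. With another background correction it was 19 and 20. With slide as a block it was 6 and 12, and without GFRα1+ replicate 1 or KIT+ replicate 2 there were 9 higher. The largest falls were those of Ndufb11 (−1.69), Cox7b (−1.39) and Cox7a2l (−1.13), and the largest rises those of Ndufa4l2 (2.75), Cox6b2 (2.20) and Cox8c (1.19).

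Against whole testes, which hold mostly meiotic and haploid germ cells, members stood on both sides. In GFRα1+ cells 54 of 84 (64.3%) were higher and 21 (25.0%) lower, against 49.9% and 37.5% of all genes tested, with a median log2 ratio of 0.70 next to 0.39. NGN3+ cells had 46 (54.8%) higher and 22 (26.2%) lower, against 44.1% and 39.6%, with medians of 0.42 and 0.13. KIT+ cells had 48 (57.1%) higher and 19 (22.6%) lower, against 43.3% and 41.6%, with medians of 0.50 and 0.05. With the percentile of detected probes, the splits were 42 higher and 29 lower, 40 and 30, and 41 and 30 for GFRα1+, NGN3+ and KIT+ cells, and the medians over all genes −0.02, −0.10 and −0.21. In NGN3+ and KIT+ cells quantile normalization gave 56 higher and 19 lower and 58 and 16. The 3 comparisons share the whole testis arrays, and no slide held NGN3+ or KIT+ arrays with whole testes.

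In all 3 fractions 43 members (51.2%) were higher and 18 (21.4%) lower than in whole testes, against 38.3% and 34.6% of all genes tested in the 3 comparisons. The 4 complex II genes passed as higher in GFRα1+ and KIT+ cells, with Sdhc at 1.90, 1.69 and 1.83 and Sdha at 1.56, 1.22 and 1.54 in GFRα1+, NGN3+ and KIT+ cells, while Sdhb was nearest to whole testes (0.31, 0.16 and 0.48) and passed in GFRα1+ and KIT+ cells. With the percentile of detected probes the Sdhb ratio in GFRα1+ cells turned to −0.10. Of complex I, 20 of 35 were higher and 9 lower in GFRα1+ cells, 16 and 10 in NGN3+ cells and 17 and 8 in KIT+ cells. Over all genes tested, 49.9% were higher and 37.5% lower in GFRα1+, 44.1% and 39.6% in NGN3+, and 43.3% and 41.6% in KIT+ cells. Genes of complex I stood on both sides: Ndufs8, an iron-sulphur core subunit, was 1.46, 1.65 and 1.74 in whole testes and at least 3.94 on every sorted array, whereas Ndufa12 was lower in every fraction, by −2.74, −2.30 and −1.62. Ndufa11, a membrane-arm subunit, was at 2.27, 2.24 and 2.72 over whole testes. Both Ndufs8 and Ndufa11 were picked after their values were seen.

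Of 8 complex III genes, 4 were higher and 3 lower in GFRα1+ cells, 4 and 3 in NGN3+ cells and 4 and 2 in KIT+ cells. In GFRα1+ cells this split is near that of all genes tested (49.9% higher and 37.5% lower), and 8 genes are few. The complex III small subunit gene Uqcrq was 6.02, 5.98 and 5.97 in GFRα1+ cells, 5.77, 5.76 and 5.84 in NGN3+ cells, 6.26, 6.41 and 6.24 in KIT+ cells and 7.68, 7.80 and 7.78 in whole testes. Whole testes were above every sorted array, by −1.77, −1.96 and −1.45 as sorted over whole testes. Uqcr11, of similar small size, stood on the other side at 1.46, 1.24 and 1.81. ATP synthase genes were mostly higher, at 12 of 15 in GFRα1+, 10 in NGN3+ and 11 in KIT+ cells. Among all genes tested 49.9%, 44.1% and 43.3% were higher. Atp5j was the 1 subunit of ATP synthase lower in all fractions (−0.44, −1.06 and −0.68). Of the 84 members tested, 30, 24 and 29 exceeded 200% of the whole testis level in GFRα1+, NGN3+ and KIT+ cells (35.7%, 28.6% and 34.5%, against 39.9%, 33.9% and 33.3% of all genes tested). Under 50% of that level were 10, 13 and 12 members (11.9%, 15.5% and 14.3%, against 31.9%, 31.8% and 33.3% of all genes).

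**Figure D5:**
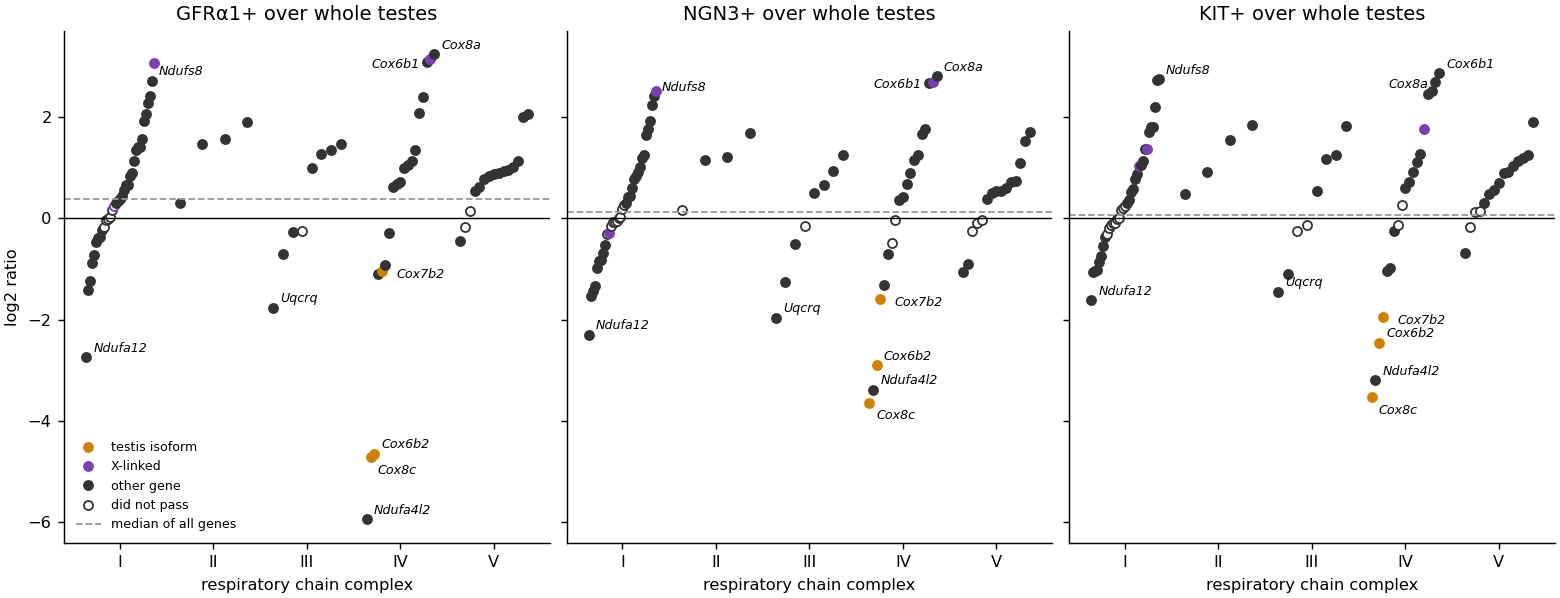
Log2 ratios of GFRα1+ (left), NGN3+ (middle) and KIT+ cells (right) over whole testes for the tested subunit genes by complex, in rising order within a complex. Filled points passed at an adjusted p under 0.05, colours mark testis isoforms and X-linked genes, and the dashed line is the median of all genes tested (0.39, 0.13 and 0.05); Cox8a, Cox6b1 and Ndufs8 lie at 2.40 or more in every panel, and Cox6b2, Cox8c, Ndufa4l2 and Ndufa12 at −1.62 or less.

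Among the 3 matched genes that encode no subunit, Atp5s was lower than in whole testes by −2.65, −2.34 and −2.41 in GFRα1+, NGN3+ and KIT+ cells. Cox4nb, which lies next to Cox4i1 and encodes a part of an endoplasmic reticulum complex, was higher by 2.91, 2.53 and 2.78. Atp5sl was higher by 0.98, 0.73 and 0.39.

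Slc25a4 and Slc25a5, carriers that exchange ADP and ATP with the cytosol, fell in both steps. Slc25a4, the ADP/ATP carrier of heart and muscle, stood at 4.70, 4.58 and 4.55 in GFRα1+ cells, 3.09, 2.99 and 2.82 in NGN3+ cells, 1.75, 1.70 and 1.61 in KIT+ cells and 3.69, 3.15 and 3.29 in whole testes. It fell by 1.64 on the log2 scale in NGN3+ against GFRα1+ cells (adjusted p = 5.57e-06) and by 1.28 in KIT+ against NGN3+ cells (adjusted p = 7.13e-05), without overlap between the fractions. Slc25a5, the X-linked carrier of dividing cells, fell by 0.92 (adjusted p = 0.00188, or 0.057 within slide 2) and by 1.94 (adjusted p = 7.91e-05). Slc25a31, the germ cell carrier, gave −0.37 (adjusted p = 0.0297, lost without any 1 of GFRα1+ replicates 1 and 2 or NGN3+ replicates 2 and 3) and −0.35 (adjusted p = 0.0565), and stood 2.67, 2.30 and 1.95 above whole testes. Of the 6 cytochrome c and carrier genes tested, 5 (83.3%, against 36.3% of all genes tested) were lower in NGN3+ than in GFRα1+ cells and 2 (33.3%, against 16.9%) lower in KIT+ than in NGN3+ cells. Testis cytochrome c, encoded by Cyct, was at 104%, 71.4% and 56.1% of the whole testis level in GFRα1+, NGN3+ and KIT+ cells, where the first ratio did not pass (log2 0.06, or −0.34 with the percentile of detected probes).

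Of 12 subunits encoded in mitochondrial DNA, 3 (25%, against 36.3% of all genes tested) were lower in NGN3+ than in GFRα1+ cells (ND6 at −1.42, COX3 at −0.54 and ND3 at −0.41). In KIT+ over NGN3+ cells 0 of 12 passed, against 17.5% higher and 16.9% lower of all genes tested. Their median there was −0.39, next to 0.05 over all genes, and 1 of 12 lay above the latter. In KIT+ over GFRα1+ cells 5 (41.7%, against 39.4%) were lower and 0 higher (against 26.7%), with a median of −0.57 next to −0.15. Of 43 assembly factors, 4 (9.3%) were higher and 22 (51.2%) lower in NGN3+ over GFRα1+ cells, against 20.2% and 36.3% of all genes tested, and 12 (27.9%) were higher and 4 (9.3%) lower in KIT+ over NGN3+ cells, against 17.5% and 16.9%. In NGN3+ over GFRα1+ cells their ratios ran from −0.96 to 2.70, with a median of −0.36 next to −0.19 over all genes. The genes named next belong to the 4 that were higher. The largest rise was that of Lyrm7, a chaperone of the Rieske protein, at −2.15, −1.59 and −1.93 in GFRα1+ cells, 0.46, 1.12 and 0.86 in NGN3+ cells, 1.41, 0.69 and 1.12 in KIT+ cells and 3.97, 4.31 and 4.39 in whole testes (2.70, adjusted p = 3.05e-05), followed by the complex I assembly factor Ndufaf3 (1.96, adjusted p = 0.000952). Their shares of the whole testis level were 1.45%, 9.40% and 11.3% for Lyrm7 and 2.46%, 9.58% and 11.1% for Ndufaf3 in GFRα1+, NGN3+ and KIT+ cells, beside 0.25%, 8.97% and 12.3% for spermatid markers, whose part was not tested. Tfam, a transcription factor that also packs mitochondrial DNA, had the same course at 2.98%, 9.63% and 11.0% (NGN3+ over GFRα1+ ratio 1.69, adjusted p = 5.36e-05).

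The same shares of all genes, 20.2% higher and 36.3% lower in the first step and 17.5% and 16.9% in the second, stand beside the shorter lists. Of 14 regulators of mitochondrial gene expression, 2 (14.3%) were higher and 5 (35.7%) lower in NGN3+ over GFRα1+ cells, and 5 (35.7%) higher and 0 lower in KIT+ over NGN3+ cells, led by Gabpa, which binds ETS sites (1.16, adjusted p = 0.00136). The pyruvate dehydrogenase list had 1 higher and 6 (54.5%) lower of 11, then 4 higher and 4 lower (36.4% each), with the inhibitory kinase gene Pdk1 lower in both steps (−0.99 and −2.27). Pdha2, the testis partner of Pdha1, did not pass between fractions (0.30, then 0.00) and stood −3.08, −2.78 and −2.77 against whole testes, where Pdha1 stood 4.45, 3.22 and 1.60 above. Of 12 citric acid cycle enzymes, 0 were higher and 4 (33.3%) lower in NGN3+ over GFRα1+ cells, then 5 (41.7%) higher and 2 (16.7%) lower in KIT+ over NGN3+ cells. Of 4 other subunit or inhibitor genes, 1 (25%) was lower in the first comparison and 2 (50%) higher in the second.

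For 23 members the arrays held further probes, 30 in all. Their ratios had the sign of the chosen probe in 30 of 30 for NGN3+ over GFRα1+ cells, 27 for KIT+ over NGN3+, 27 for KIT+ over GFRα1+, and 28, 26 and 23 for GFRα1+, NGN3+ and KIT+ cells over whole testes. Probes passed in opposite directions for Atp5c1 (0.51 and −0.49) and Ndufv3 (0.45 and −0.68), both in NGN3+ cells over whole testes, so these ratios are uncertain. Cox6b1, Cox6b2, Cox7b, Cox7b2, Cox8c, Ndufa1, Ndufa4 and Ndufa4l2 rest on 1 probe each. In mm9, the build of the files, the probes lie at chr7:4703488-4703547 on the minus strand for Cox6b2, chr12:104138678-104138736 on the plus strand for Cox8c, chr10:126954149-126954208 on the plus strand for Ndufa4l2, chrX:103217154-103217213 on the plus strand for Cox7b, chrX:34727627-34727686 on the minus strand for Ndufa1 and chrX:20192453-20192512 on the minus strand for Ndufb11.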

How the data were processed

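RNA of 9 sorted and 3 whole testis samples, from different animals per the methods, was hybridised to Agilent 1-colour mouse arrays after labelling of 25 ng with Cy3. The authors deposited, per the file headers, Feature Extraction output (10.7.1.1 for slide 2, 10.7.3.1 for the others): a background-subtracted intensity per spot with flags, and a log2 value table, which matched log2 intensity minus the 75th percentile of each array up to a constant (within 0.01 for 99.97% or more of probes; column medians −3.84 to −3.44). Genes were not centred in it. Here control and outlier spots (103 to 161 an array) were left out, 0 spots were saturated, and the 75th percentile of intensity ran from 318 to 675. A gene was tested where each of the 3 arrays of either compared group had its probe well above background, using limma 3.58.1 (R 4.3.3; tables with Python 3.11.15) and Benjamini-Hochberg adjustment over all genes tested, at 0.05: the 9 sorted arrays in 1 fit, all 12 for whole testes. The script was tested on simulated data. All 85 gene names matched RefSeq (GRCm38.p6), and over all probes 26407 were named by accession, 3864 by symbol, 735 by synonym and 24675 by the file. The number of arrays limits the precision.

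The members, gene lists and rule for named genes were chosen with earlier results of these data known. Named are all isoform genes, the 3 smallest adjusted p values per complex in each step between fractions, X-linked genes and genes with disagreeing or undetected probes. Of each other list, up to 3 genes were named for each of these steps. Alternatives were other scaling, background correction, filters, probes, sample sets, slide or replicate blocks, the methods' t-test and leaving out each array.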

Additional observations from a re-analysis of the deposited data

How the results depend on the processing

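Counts of members moved most between sorted fractions. In NGN3+ over GFRα1+ cells (6 higher, 41 lower) there were 16 higher and 12 lower with quantile normalization, 22 lower with the percentile over detected probes, 64 lower with every probe on its own, 11 lower with slide as a block, 6 lower within slide 2 and 2 higher with the methods' t-test. In KIT+ over NGN3+ cells (7 lower) 11 were lower with quantile normalization or every probe, and 4 with no filter or the methods' t-test. In KIT+ over GFRα1+ cells (14 higher, 25 lower) there were 36 and 14 with quantile normalization, 26 higher with detected probes, 43 lower with every probe, 6 and 12 with slide as a block and 7 and 9 within slide 2. Against whole testes, 13 were lower in GFRα1+ cells within slide 1 (21 otherwise), and 30 in KIT+ cells with detected probes (19 otherwise). The cause was not tested, except that the fits within 1 slide use fewer arrays and the fit of every probe holds more probes.

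Leaving out 1 array gave 2 to 6 higher and 19 to 49 lower in NGN3+ over GFRα1+ cells, 15 to 23 and 3 to 7 in KIT+ over NGN3+, 9 to 13 and 17 to 29 in KIT+ over GFRα1+, and 51 to 53 and 18 to 23, 43 to 47 and 21 to 23, and 43 to 47 and 17 to 21 for GFRα1+, NGN3+ and KIT+ cells over whole testes. Where 1 GFRα1+ array or 1 whole testis array stood alone, it was assumed to vary like the other groups.

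Signs turned with quantile normalization for Atp5g2 (0.31), Atp5h (0.39), Cox4i1 (0.42) and Sdha (0.25) in KIT+ over GFRα1+ cells, for Atp5c1 (0.0041), Atp5g1 (0.36), Atp5g2 (0.041), Cox5a (0.0085), Cox6a1 (0.069) and Cox8a (0.011) in NGN3+ over GFRα1+ cells, and for Cox5a (0.12) and Cox7a2l (0.22) in KIT+ cells over whole testes. They turned with detected probes for Cyct (−0.34) and Sdhb (−0.10) in GFRα1+ cells over whole testes, and for Cox6a2 within slide 2 in KIT+ over GFRα1+ cells (0.84) and with slide as a block in KIT+ cells over whole testes (0.52). The cause was not tested.

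Replicate numbers did not pair the samples: deviations of same-numbered arrays correlated at −0.02, −0.22 and 0.07 for NGN3+ and GFRα1+, −0.39, −0.58 and 0.24 for KIT+ and NGN3+, and −0.03, 0.29 and 0.08 for KIT+ and GFRα1+ cells. With a replicate block, 4 were higher and 29 lower in NGN3+ over GFRα1+ cells, 17 and 6 in KIT+ over NGN3+, 10 and 20 in KIT+ over GFRα1+, and 53 and 19, 45 and 23, and 47 and 19 in GFRα1+, NGN3+ and KIT+ cells over whole testes. Dim probes limit Cox6a2 and Cox8b.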
